A study of Mus musculus with 8 samples.

Results

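Cytosolic heat-shock proteins and their cochaperones were followed at the RNA level in sorted tuft cells of the mouse small intestine. The set was named gene by gene as a gene family, by a rule that uses no measured value but was written with earlier results of these data known, and holds 9 of the 53655 gene symbols in the count table. It comprises Hspa1a, Hspa1b, Hspa8, Dnajb1, Dnaja1, Hsph1, Hsp90aa1, Hsp90ab1 and Hspb1. Of these, 8 passed the filter on low counts and were among the 8919 genes tested, and Hspb1 did not. The 6 genes Hspa1a, Hspa1b, Dnajb1, Hsph1, Hsp90aa1 and Hspb1 were taken as inducible members, and the 3 genes Hspa8, Hsp90ab1 and Dnaja1 as constitutive members.

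Hsp70 proteins bind unfolded stretches of other proteins in a cycle driven by ATP. J-domain proteins bring them their clients, and exchange factors such as Hsp110 release the bound nucleotide. Hsp90 takes over part of these clients at a later stage of folding. Cells keep constitutive copies of each machine and add inducible copies when heat or other stress frees the transcription factor Hsf1, which binds repeated GAA units in the promoters of the inducible genes. Release of cells from a tissue is a known trigger of both the heat-shock genes and the immediate-early genes, so that the inducible members, read against the constitutive members, are read here as a measure of dissociation stress.

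Tuft cells are a scarce epithelial cell type of the gut that senses its contents. All libraries came from naïve mice with the genotype label Il25-RFP/+;Chat-GFP(Tg+), a red reporter at Il25 together with a green transgenic reporter for Chat, the gene of the enzyme that makes acetylcholine. Epithelium was released with a DTT wash of 15 min and EDTA washes of 15 min each, and CD45-negative, EPCAM-positive, RFP-positive cells were sorted. Cells without green signal (Chat-neg) and cells with it (Chat-pos) gave 4 libraries each, named Chat-neg 1 to 4 and Chat-pos 1 to 4 by replicate, and values below follow that order. The labels give no age and do not tie libraries to animals, so that every p-value is set by the spread from library to library, which may be technical. The question put to the members was whether tuft cells of the GFP-positive gate carried more or less heat-shock RNA than those of the GFP-negative gate, and in which class of member.

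Counts in named genes ran from 87642 to 1176880 per library in Chat-neg and from 1757401 to 2541955 in Chat-pos. Depth did not overlap between the groups, nor did the share of counts in rows without a gene name (given below). Neither can be told apart from the gate. Chat itself stood at 117 CPM (counts per 1e+06 scaled counts) in Chat-neg and 330 CPM in Chat-pos and rose by 1.46 ± 0.21 on the log2 scale (SE; adjusted p = 6.28e-05, by the quasi-likelihood test of edgeR and Benjamini-Hochberg adjustment). All 9 tuft cell markers were tested, led by Sh2d6, and their summed level was 9168 to 16050 CPM in Chat-neg and 20300 to 21490 CPM in Chat-pos, with 3 of 9 higher. Transcripts of other cells were present in both gates. Enterocyte markers, led by Fabp1, summed to 21244 to 45763 CPM in Chat-neg and 32938 to 54247 CPM in Chat-pos. Paneth cell markers, led by Defa24, summed to 634 to 2796 CPM in Chat-neg and to 531, 45939, 26240 and 412 CPM in Chat-pos 1 to 4. Chat-pos 2 and 3 are called Paneth-rich below for that reason, and results that turn on them are also given without them. Goblet cell markers, led by Zg16, summed to 454 to 5371 CPM in Chat-neg and 271 to 758 CPM in Chat-pos, with 1 of 6 lower. Intraepithelial lymphocyte markers, led by Gzma, summed to 156 to 324 CPM in Chat-neg and 3.37 to 258 CPM in Chat-pos. The sums of the enteroendocrine (Sct), stem (Olfm4), cycling (Birc5) and stromal (Vim) lists overlapped between the groups. Sct, the hormone secretin and the 1 enteroendocrine marker tested, rose by 0.85 ± 0.22 on the log2 scale (edgeR adjusted p = 0.0155). The other enteroendocrine markers, Chga, Chgb, Neurod1, Gcg and Cck, were not tested, and each had a lower mean in Chat-pos. No gene of the stem or cycling lists passed, and no stromal gene was tested. What RNA of other cells adds to the members' levels was not tested, and in such bulk libraries fewer cells of a type and less RNA per cell cannot be told apart.

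The inducible Hsp70 of the mouse is encoded by a pair of genes that lie side by side on the minus strand of chromosome 17 (GRCm38), Hspa1a at chr17:34969190-34972156 and Hspa1b at chr17:34956436-34959238. Each is 1 exon. Their coding sequences, of 1926 and 1929 bases, differ at 8 aligned bases and by 1 gap of 3 bases (99.58% identity). A read of 74 bases, the length sequenced here, could be placed in either gene in 75.6% of the coding positions of Hspa1a. The stretch below, coding bases 1343 to 1416 at chr17:34970510-34970583 for Hspa1a and chr17:34957592-34957665 for Hspa1b, is shown because its 2 differing bases, in capitals, are what can tell such a read apart.
Hspa1a: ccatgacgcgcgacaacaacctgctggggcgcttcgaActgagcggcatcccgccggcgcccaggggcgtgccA
Hspa1b: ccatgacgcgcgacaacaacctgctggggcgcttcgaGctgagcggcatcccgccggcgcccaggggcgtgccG

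Over whole transcripts, 38.1% of the 74-base windows of Hspa1a and 43.9% of those of Hspa1b occur in no other annotated transcript. How reads with several matches were counted is not given in the sources used here, so the split between both genes is uncertain and their summed count is given beside it. Hspa1a also shares exon sequence with Gm20481. The share of windows found nowhere else was 100% for Dnajb1 (chr8:83608193-83612653) and Hsph1 (chr5:149614287-149636376), and 99.4% for Hsp90ab1 (chr17:45567775-45573271). It was 81.5% for Dnaja1 (chr4:40722150-40737149), 66.7% for Hspa8 (chr9:40800984-40810087), 57.1% for Hsp90aa1 (chr12:110690605-110702728) and 53.5% for Hspb1 (chr5:135887919-135889563). The values of these 4 are uncertain to that extent, because near-identical gene copies or, for Dnaja1, also the overlapping gene Smu1 hold the same stretches. The copies themselves received few counts, at most 28 in any library for a copy of Hspa8 (Gm26825) and 8 for a copy of Hsp90aa1 (Gm12346). Exons of Hspa8 overlap Snord14c, Snord14d and Snord14e, and those of Dnaja1 overlap Gm6297, Mir207 and Smu1.

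Promoter sequence from RefSeq (GRCm38.p6, from 250 bases before to 50 bases after each start) was found for 6 of the 9 members, and Hspa8, Hsp90aa1 and Hsp90ab1 had no entry. The heat-shock element was searched as a pair of facing units, GAANNTTC or TTCNNGAA, each of which reads the same on both strands. The stretches below carry it, with the bases of the units in capitals, and show which members hold the letters that Hsf1 is known to bind. The stretch of Hspa1a, on the minus strand at chr17:34972227-34972286, is identical in Hspa1b at chr17:34959309-34959368, and that of Hspb1 lies on the plus strand at chr5:135887786-135887845. Those of Hsph1, minus strand, chr5:149636352-149636379, and of Dnaja1, plus strand, chr4:40722334-40722361, lie wholly or in part inside the longer gene models given above.
Hspa1a and Hspa1b: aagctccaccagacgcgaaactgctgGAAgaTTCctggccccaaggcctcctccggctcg
Hspb1: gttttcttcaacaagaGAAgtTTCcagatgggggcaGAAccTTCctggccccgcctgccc
Hsph1: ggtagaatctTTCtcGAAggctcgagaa
Dnaja1: aaagcctctaGAAaaTTCtacgaggctc

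The match begins 104 bases before the start in both Hspa1 genes, 117 and 97 bases before it in Hspb1, and 124 bases before it in Dnaja1. In Hsph1 TTCNNGAA begins 33 bases before the nearest start, and GAANNTTC lies after the start. GAANNTTC was held by a window of 5 of the 6 members, and by 9.04% of the 27025 genes in the promoter table. It stood in 6 of the 10 member windows and in 7.86% of all 32851 windows of that length, while TTCNNGAA stood in 2 member windows, both of Hsph1, and in 8.52% of all windows. Both windows of Dnajb1 lacked either form, and that at chr8:83608298-83608597 lies wholly inside the gene model given above. The whole 300-base windows of Hspa1a and Hspa1b differed at 4 bases (98.67% identity). A match describes these letters alone and was not read as a bound site.

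Levels between genes were compared per kilobase of the longest coding transcript, as the mean over all 8 libraries. Hsp90ab1 was the most abundant member at 233 CPM per kb, followed by Hspa8 at 167 and Hsp90aa1 at 113. Hspa1b stood at 52.7 CPM per kb, Dnajb1 at 27.7, Dnaja1 at 24.4, Hsph1 at 19.8 and Hspa1a at 14.2. Hspb1 was close to absent at 0.316 CPM per kb. The upper 3 steps of this order held in 8 of 8 libraries. The step from Hspa1b to Dnajb1 held in 7, and those from Dnajb1 to Dnaja1, from Dnaja1 to Hsph1 and from Hsph1 to Hspa1a in 5, 6 and 6, so that these middle neighbours were not separated in every library. The order also differed by gate, since Hsph1 stood above Dnaja1 in Chat-neg (24.8 ± 11.4 and 22.2 ± 8.24 CPM per kb) and below it in Chat-pos (14.8 ± 2.57 and 26.6 ± 2.73 CPM per kb; SD, n = 4 each). With the union of all exons as the length, Hspa8 and Hsp90aa1 changed places, as did Hsph1 and Hspa1a. With either length Hsp90ab1 led the set, and the inducible Hsp90 gene stood above both inducible Hsp70 genes. These levels take no account of windows shared with other transcripts. The places of the members with many such windows, among them Hspa1a and Hspa1b, are therefore uncertain.

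Of the 8 tested members, 1 was lower and 0 were higher in Chat-pos at an edgeR adjusted p under 0.05, against 2.87% of all tested genes lower and 3.62% higher (6.49% in either direction). At an unadjusted p under 0.05 the counts were 5 lower and 0 higher. The share of all tested genes at that threshold was not computed, so that no excess is read from these counts. Among the 5 are Hspa1a and Hspa1b, whose reads cannot be split with certainty, so that they are not separate measurements. The median log2 difference of the 8 was -0.63 with 6 of 8 negative, beside -0.02 and 51.5% negative over all tested genes. The groups did not overlap in 2 of the 8, both lower in Chat-pos, where 5.42% of all tested genes showed that pattern (8.58% lay higher without overlap, and 14% in either direction). Both are Hsp90 genes, and for Hsp90aa1 the gap between the groups was smaller than 1 count in Chat-neg 1. The comparison of these small numbers with the background rests on 8 genes and was given no test.

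**Figure D1:**
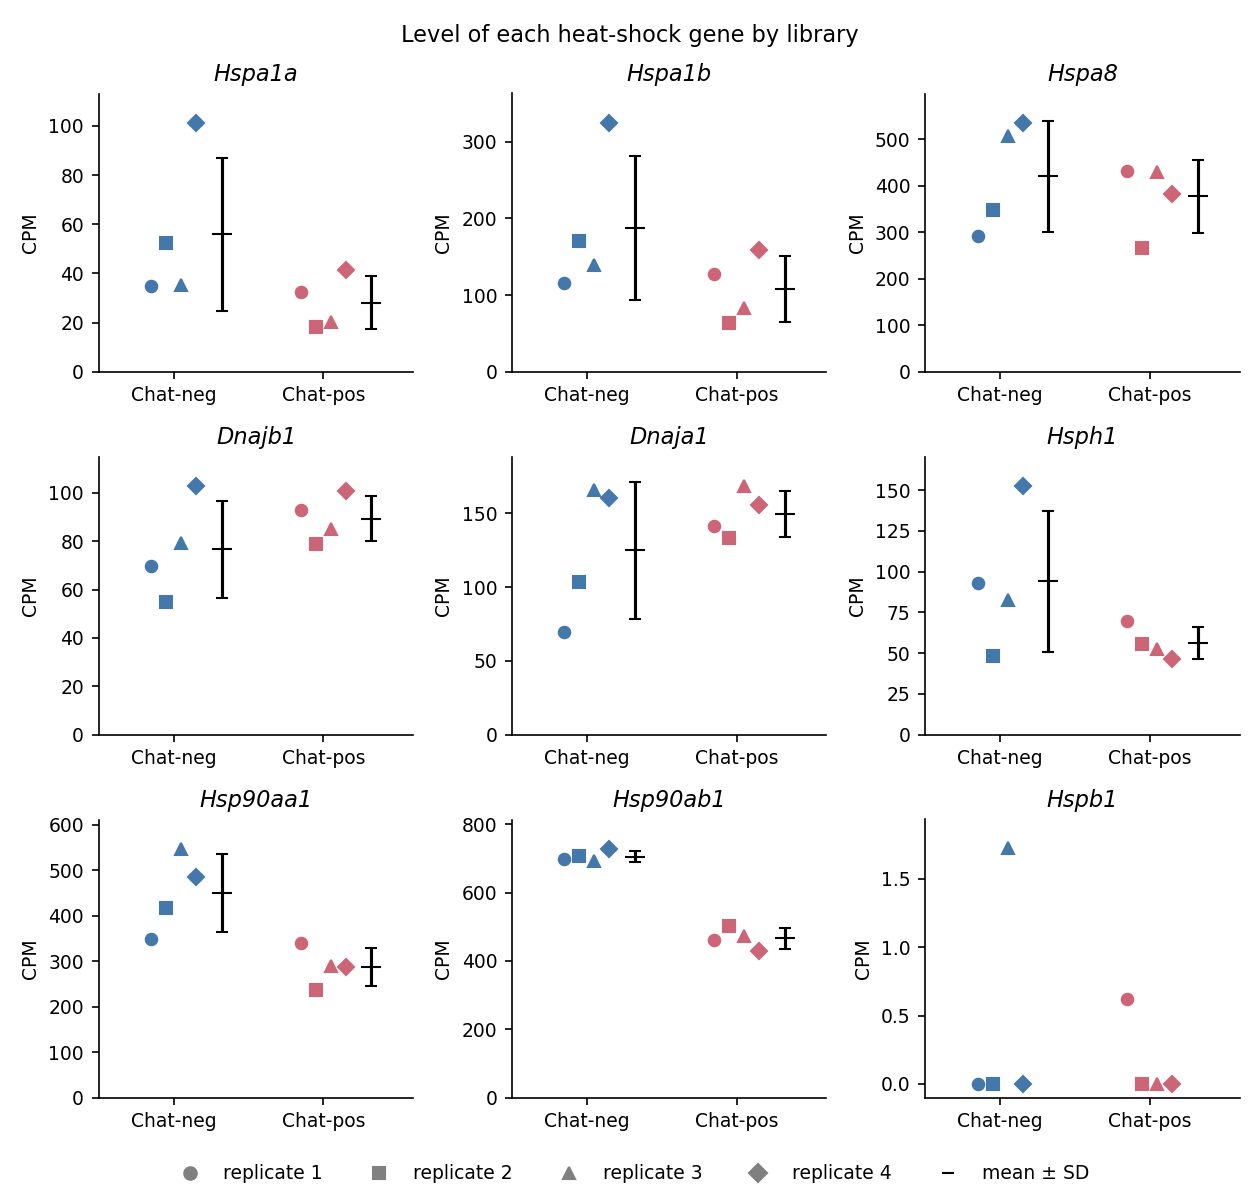
Level of each of the 9 heat-shock genes in CPM (vertical axes, each with its own scale) in 4 Chat-neg (blue) and 4 Chat-pos (red) libraries, marked by replicate; the horizontal line and bar beside the points are the mean ± SD, left out for Hspb1. Hsp90aa1 and Hsp90ab1 show no overlap between the groups, and Chat-neg 4 is the highest point for Hspa1a, Hspa1b and Hsph1.

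Among the Hsp70 genes, the inducible pair had its lowest values in Chat-pos without passing the test. Hspa1a was measured at 34.9, 52.2, 35.4 and 101 CPM in Chat-neg 1 to 4 and at 32.3, 18.4, 20.3 and 41.2 CPM in Chat-pos 1 to 4. The groups overlapped, with Chat-neg 4 far above the rest and the Paneth-rich Chat-pos 2 and 3 the lowest. Means were 55.9 ± 31.2 CPM in Chat-neg and 28.1 ± 10.7 CPM in Chat-pos (SD, n = 4 each). The log2 difference was -1.06 ± 0.33 (SE; 95% interval -1.76 to -0.37; edgeR adjusted p = 0.0595). It was -0.56 without the Paneth-rich libraries (edgeR adjusted p = 0.466) and -0.57 without Chat-neg 4 (0.406). Hspa1a passed without Chat-neg 3 (edgeR adjusted p = 0.0316) and without Chat-pos 4 (edgeR adjusted p = 0.0237). The value of Chat-neg 1 rests on 3 counts.

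Hspa1b was measured at 116, 171, 139 and 324 CPM in Chat-neg and at 128, 63.2, 83.2 and 159 CPM in Chat-pos. It held more counts than Hspa1a in every library, as far as reads of both copies can be split. The same libraries stood at the top and the bottom as for Hspa1a. Means were 188 ± 93.7 and 108 ± 43.1 CPM (SD, n = 4 each), with a log2 difference of -0.85 ± 0.36 (95% interval -1.64 to -0.06; edgeR adjusted p = 0.204), or -0.34 without the Paneth-rich libraries and -0.42 without Chat-neg 4. The ratio of Hspa1a to Hspa1b counts lay between 0.244 and 0.312 in every library. Summed as 1 gene, the pair stood at 243 ± 125 CPM in Chat-neg and 136 ± 53.8 CPM in Chat-pos and did not pass either (-0.89 ± 0.36; 95% interval -1.69 to -0.08; edgeR adjusted p = 0.197).

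Hspa8, the constitutive Hsp70 of the cytosol that also strips clathrin from vesicles, did not separate the gates. It stood at 291, 348, 507 and 534 CPM in Chat-neg and at 432, 265, 430 and 383 CPM in Chat-pos. Of the Chat-pos libraries, 3 lay inside the Chat-neg range and Chat-pos 2 below it. The log2 difference was -0.18 ± 0.22 (95% interval -0.64 to 0.27; edgeR adjusted p = 0.712), and it turned to 0.03 without the Paneth-rich libraries and to 0.04 without a filter on low counts.

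The J-domain partners were the 2 members with a positive difference. Dnajb1, the inducible partner of Hspa1a and Hspa1b, stood at 69.8, 54.8, 79.4 and 103 CPM in Chat-neg and at 92.7, 78.8, 85.1 and 101 CPM in Chat-pos. The groups overlapped, and the highest library of each was nearly level. The log2 difference was 0.20 ± 0.23 (95% interval -0.26 to 0.67; edgeR adjusted p = 0.680). Dnaja1, a constitutive partner of Hspa8, stood at 69.8, 103, 166 and 160 CPM in Chat-neg and at 141, 134, 168 and 155 CPM in Chat-pos. Its Chat-neg libraries spread widely, with replicate 1 at 6 counts, while the Chat-pos libraries were close together. The log2 difference was 0.16 ± 0.21 (95% interval -0.28 to 0.60; edgeR adjusted p = 0.732). For both genes the interval includes 0 and allows a rise of more than 0.5 on the log2 scale.

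Hsph1 encodes an inducible Hsp110, which acts as a nucleotide exchange factor for Hsp70 and helps it to take aggregates apart. It stood at 93.1, 48.4, 82.9 and 152 CPM in Chat-neg and at 69.7, 55.6, 52.5 and 46.7 CPM in Chat-pos. Chat-neg 2 lay among the Chat-pos values and the other 3 Chat-neg libraries above all of them. Means were 94.2 ± 43.3 and 56.1 ± 9.77 CPM (SD, n = 4 each), with a log2 difference of -0.74 ± 0.27 (95% interval -1.30 to -0.18; edgeR adjusted p = 0.109). It passed without Chat-neg 2 (-0.97; edgeR adjusted p = 0.0480), and without Chat-neg 4 it was -0.30 (edgeR adjusted p = 0.624).

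Both Hsp90 genes were lower in each Chat-pos library than in any Chat-neg library. Hsp90aa1, the inducible Hsp90, was measured at 349, 418, 546 and 486 CPM in Chat-neg and at 340, 237, 289 and 288 CPM in Chat-pos. The gap between the lowest Chat-neg library (349.0 CPM) and the highest Chat-pos library (339.7 CPM) was narrow. It was smaller than 1 count in Chat-neg 1, which is worth 11.6 CPM, and that value rests on 30 counts. Hsp90aa1 fell by 0.66 ± 0.21 on the log2 scale (95% interval -1.08 to -0.24; edgeR adjusted p = 0.0490), from 450 ± 85.3 to 288 ± 41.9 CPM (SD, n = 4 each). That call was close to the threshold. It held without Chat-neg 1 (edgeR adjusted p = 0.00927) or Chat-pos 1 (0.0448), and was not reached without Chat-neg 2, 3 or 4 (0.169, 0.241 and 0.165) or Chat-pos 2, 3 or 4 (0.174, 0.137 and 0.0948). Nor was it reached with a filter of 5 CPM in 4 libraries (edgeR adjusted p = 0.0822), with no filter (0.354) or with library sizes over all named genes (0.0590). Without both Paneth-rich libraries the difference was -0.44 (edgeR adjusted p = 0.435).

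Hsp90ab1, the constitutive Hsp90, had the smallest SD relative to its mean of the tested members in both groups. It was measured at 698, 706, 692 and 727 CPM in Chat-neg and at 462, 503, 474 and 428 CPM in Chat-pos. The groups did not overlap. Means were 706 ± 15.1 and 467 ± 31.0 CPM (SD, n = 4 each). The Chat-neg values rest on 60, 554, 802 and 453 counts. Their SD is smaller than counting error alone on such counts, so that it understates the spread. The log2 difference of -0.60 ± 0.19 (95% interval -0.99 to -0.20) did not pass in the fit over all genes (edgeR adjusted p = 0.0602), which shares information on the spread between genes. It passed without Chat-neg 1 (edgeR adjusted p = 0.0180), with upper-quartile scaling (0.0194), with total count scaling (0.0299), with DESeq2 (adjusted p = 0.00397) and with limma-voom (adjusted p = 0.0233). It did not pass with RLE scaling (edgeR adjusted p = 0.0558), library sizes over all named genes (0.0746), a filter of 5 CPM in 4 libraries (0.104) or any other single library left out (0.108 to 0.251), and it was -0.34 with no filter (0.502). Without both Paneth-rich libraries it was -0.56 (edgeR adjusted p = 0.269).

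Hspb1, the small heat-shock protein that holds unfolded clients without ATP, was nearly undetected. It had 2 counts in Chat-neg 3 (1.73 CPM), 1 count in Chat-pos 1 (0.622 CPM) and 0 in the other 6 libraries. A count of 0 allows up to 3 counts, which is 34.9 CPM in Chat-neg 1 and 1.26 CPM in Chat-pos 4 and lies between these in the other libraries. No fold is given. The bound covers counting error only, since amplified reads without molecular identifiers are not independent molecules.

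**Figure D2:**
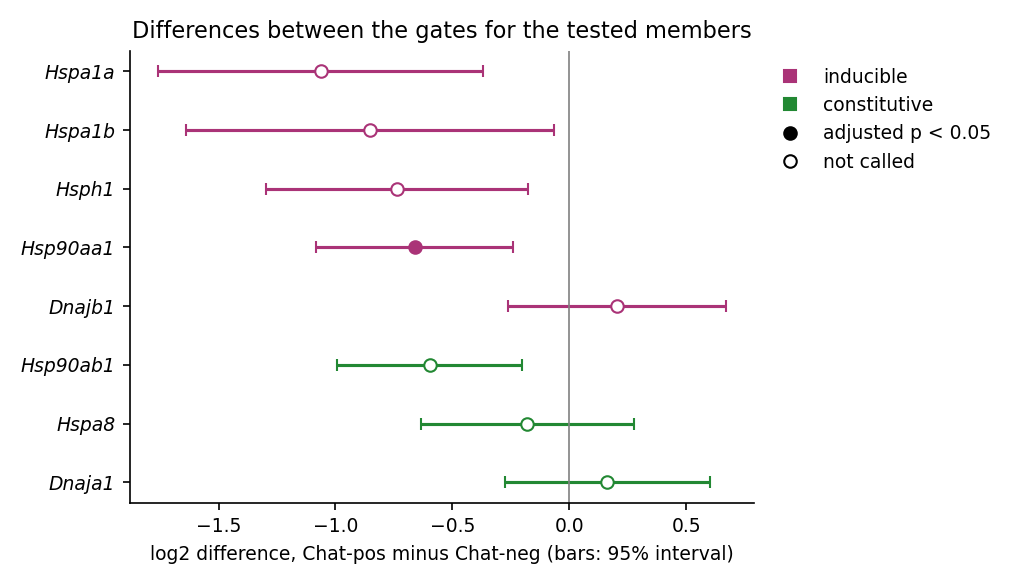
Log2 difference, Chat-pos minus Chat-neg (horizontal axis), of the 8 tested heat-shock genes from edgeR over 4 against 4 libraries, with 95% intervals as bars; purple marks inducible and green constitutive members, and the filled point an adjusted p under 0.05. The intervals of Hspa1a, Hspa1b, Hsph1, Hsp90aa1 and Hsp90ab1 lie below 0 and those of Dnajb1, Hspa8 and Dnaja1 include it.

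Inducible and constitutive members were then set against each other in each library. The inducible members summed to 663, 744, 885 and 1166 CPM in Chat-neg and to 663, 453, 530 and 635 CPM in Chat-pos, the lowest Chat-neg sum (663.1) lying within 1 CPM of the highest Chat-pos sum (662.5). The constitutive members summed to 1059, 1157, 1365 and 1422 CPM in Chat-neg and to 1035, 901, 1072 and 966 CPM in Chat-pos, with overlap. Both classes therefore had a lower mean in Chat-pos. Their ratio, as log2 of inducible over constitutive, was -0.67, -0.64, -0.63 and -0.29 for Chat-neg 1 to 4. For Chat-pos 1 to 4 it was -0.64, -0.99, -1.02 and -0.61. In every library the inducible members summed to less than the constitutive members. Group means were -0.56 ± 0.18 and -0.81 ± 0.22 (SD, n = 4 each), a difference of -0.26 with overlapping groups. No p is given for a score over members that were chosen with earlier results known.

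In this ratio 3 libraries stood apart. Chat-neg 4 was high, the Paneth-rich Chat-pos 2 and 3 were low, and the other 5 libraries lay between -0.67 and -0.61 whichever gate they came from. Without both Paneth-rich libraries the difference was -0.07. It was -0.17 per kb of exon length, -0.18 with Hsp90aa1 left out of the inducible class, -0.35 as a mean of log2 levels and -0.02 with Dnaja1, whose promoter window also holds GAANNTTC, counted as inducible. As a share of all member counts, the inducible members took 38.5% (57 of 148 counts; exact Clopper-Pearson 95% interval 30.6% to 46.9%), 39.1%, 39.3% and 45.1% (42.6% to 47.5%) of them in Chat-neg. They took 39.0%, 33.4%, 33.1% and 39.7% in Chat-pos, where member counts ran from 2729 to 3805. These intervals cover counting error only and do not test a difference between libraries.

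**Figure D3:**
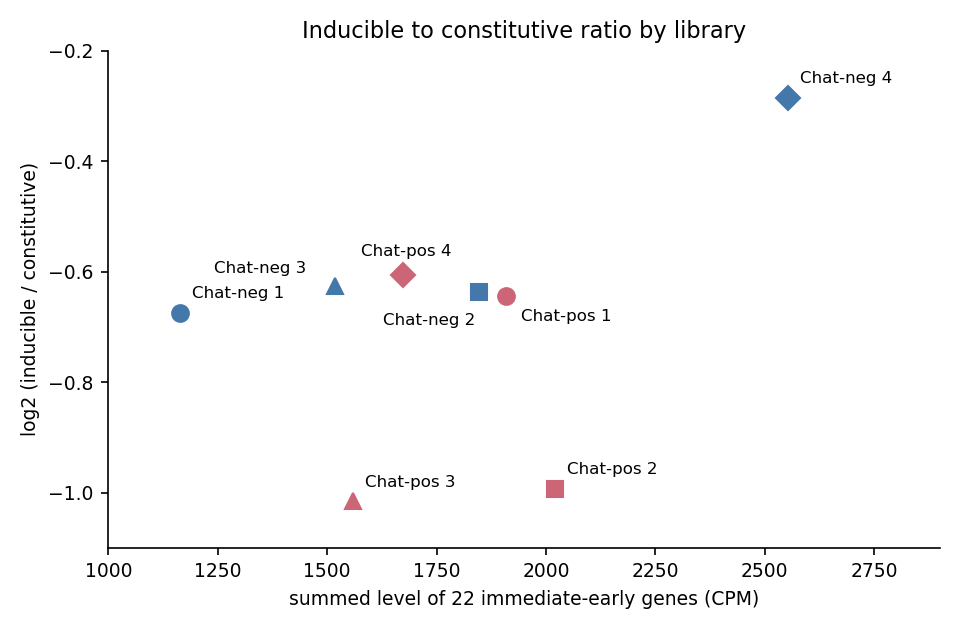
Log2 of summed inducible over summed constitutive CPM (vertical axis) against the summed level of 22 immediate-early genes in CPM (horizontal axis), 1 point per library, blue for Chat-neg and red for Chat-pos. Chat-neg 4 is highest on both axes, and Chat-pos 2 and 3 lie lowest on the vertical axis but inside the range of the others on the horizontal one.

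Other marks of handling and of neighbouring cells were read in the same libraries. The immediate-early genes, which respond to stimuli within minutes, summed to 1163, 1846, 1518 and 2553 CPM in Chat-neg and to 1909, 2020, 1558 and 1673 CPM in Chat-pos. Fos, a part of the AP-1 factor, stood at 93.1, 206, 117 and 369 CPM in Chat-neg and at 136, 229.8, 119 and 87.9 CPM in Chat-pos. Chat-neg 4 was thus the highest library for the ratio, for Hspa1a, Hspa1b and Hsph1, for the immediate-early sum and for Fos. The same library had the highest stem, cycling and stromal marker sums in Chat-neg, at 1019, 361 and 33.7 CPM against 114 to 317, 56.1 to 244 and 2.59 to 23.3 CPM in the others. Chgb, an enteroendocrine granule protein, stood there at 345 CPM against 0 to 8.92 CPM in the other 7 libraries. The lowest ratios, -0.99 and -1.02, stood in the libraries with 45939 and 26240 CPM of Paneth cell markers. The part of any of these in the ratio was not tested.

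**Figure D4:**
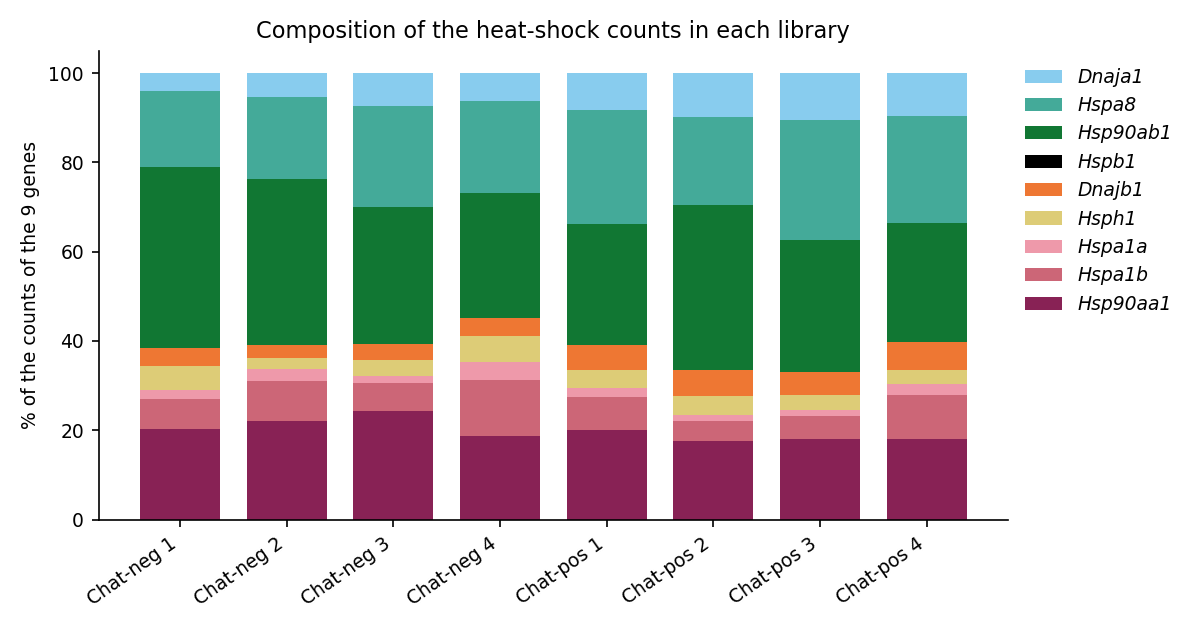
Share of each heat-shock gene in the counts of all 9 (vertical axis, %) in each of the 8 libraries; greens and blue are constitutive and the other colours inducible members. Dnaja1 and Dnajb1 take a larger share in each Chat-pos library than in any Chat-neg library.

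As shares of the member counts, though not as levels, the J-domain partners, 1 of each class, lay higher in Chat-pos. Dnaja1 took 4.05%, 5.43%, 7.37% and 6.20% of member counts in Chat-neg against 8.32%, 9.86%, 10.5% and 9.70% in Chat-pos. Dnajb1 took 4.05%, 2.88%, 3.53% and 3.97% in Chat-neg, where Chat-pos libraries had 5.46%, 5.82%, 5.31% and 6.28%. For these 2 genes the shares did not overlap, at 5.76 ± 1.39% and 9.59 ± 0.918% for Dnaja1 and 3.61 ± 0.536% and 5.72 ± 0.433% for Dnajb1 (SD, n = 4 each). In Chat-neg 1 each share rests on 6 counts. The shares of the other 7 members overlapped. A share also moves when other members change. The summed level of all members was itself lower in Chat-pos without overlap, at 1722 to 2588 CPM in Chat-neg and 1354 to 1698 CPM in Chat-pos. The levels of Dnaja1 and of Dnajb1 overlapped between the groups, and neither passed the test.

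Ratios of each inducible gene to its constitutive partner overlapped in all 3 pairs. The summed Hspa1a and Hspa1b counts were 0.520, 0.641, 0.344 and 0.796 of those of Hspa8 in Chat-neg against 0.370, 0.307, 0.241 and 0.522 in Chat-pos. Hsp90aa1 was 0.5, 0.592, 0.789 and 0.669 of Hsp90ab1 in Chat-neg against 0.736, 0.471, 0.610 and 0.673 in Chat-pos. The means of the Hsp90 ratio, 0.638 ± 0.122 and 0.622 ± 0.113 (SD, n = 4 each), lay closer together than the libraries of either group. Dnajb1 was 1.00, 0.531, 0.479 and 0.640 of Dnaja1 in Chat-neg against 0.656, 0.591, 0.506 and 0.648 in Chat-pos, and its highest value rests on 6 counts of each gene.

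The other genes of the cytosolic chaperone system changed in single cases. Of 40 tested genes in 6 cytosolic lists around the members, 3 were higher and 1 lower, against 3.62% and 2.87% of all tested genes. Their median log2 difference was -0.01 beside -0.02 over all tested genes. Without overlap, 4 of the 40 were lower in Chat-pos and 2 higher, against 5.42% and 8.58% of all tested genes. The lower ones were the J-domain genes Dnajb6 and Dnajc21 and the Hsp90 cochaperones Ptges3 and Unc45a. The higher ones were Hspa4l and Dnajc7. Among 4 tested Hsp70 and Hsp110 genes outside the set, Hspa4l, a testis-rich Hsp110, rose from 127.5 ± 22.8 to 208.9 ± 39.2 CPM, with no overlap (0.67 ± 0.21; edgeR adjusted p = 0.0482). Leaving out Chat-neg 2, Chat-neg 4 or any of the 4 Chat-pos libraries ended that call (edgeR adjusted p from 0.0605 to 0.172). Of 11 further J-domain genes, Dnajc7, which binds both Hsp70 and Hsp90, rose from 23.2 to 51.8 CPM (1.00 ± 0.30; edgeR adjusted p = 0.0395). Dnajb6, a suppressor of aggregation, fell from 31.0 to 15.1 CPM (-1.12 ± 0.34 on the log2 scale; edgeR adjusted p = 0.0406). Of the 8 fits that left out a library, Dnajc7 passed in 1 (without Chat-pos 1) and Dnajb6 in 2 (without Chat-neg 1 or Chat-pos 4).

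Of 8 tested exchange factors and regulators of Hsp70, Stub1, a ubiquitin ligase that acts on clients of Hsp70 and Hsp90, rose from 29.2 to 71.4 CPM (1.05 ± 0.29; edgeR adjusted p = 0.0234). It passed in the fits that left out Chat-neg 1, Chat-neg 3 or Chat-pos 1, and in no other fit that left out a library. None of 14 tested Hsp90 cochaperones passed in either direction. Their median was -0.13, and the smallest p belonged to Ahsa2, a relative of the activator of the Hsp90 ATPase (0.53 ± 0.32; edgeR adjusted p = 0.363). The 3 tested genes in the list of heat-shock factors were all above 0, with a median of 0.48, and none passed. Hsf2 stood at 54.1 ± 20.8 CPM in Chat-neg and 76.6 ± 16.5 CPM in Chat-pos (0.56 ± 0.26; edgeR adjusted p = 0.223). Of 6 small heat-shock genes besides Hspb1, 0 passed the filter and 4 (Hspb2, Hspb3, Hspb7 and Hspb8) had 0 counts in all libraries. The 6 summed to at most 2.55 CPM in a Chat-neg and 5.60 CPM in a Chat-pos library.

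Among 16 tested immediate-early genes, Jun, a subunit of AP-1, was the 1 that passed, against 6.49% of all tested genes in either direction. It stood at 104.7, 145, 96.7 and 141 CPM in Chat-neg and at 85.8, 83.8, 62.8 and 48.4 CPM in Chat-pos and fell by 0.83 ± 0.23 on the log2 scale (edgeR adjusted p = 0.0252). Leaving out Chat-neg 2, Chat-neg 4, Chat-pos 3 or Chat-pos 4 ended the call (edgeR adjusted p from 0.0893 to 0.184). Junb, another AP-1 subunit, lay the other way without overlap, at 34.9, 85.4, 85.5 and 89.9 CPM in Chat-neg and 123.8, 130.8, 127 and 140.1 CPM in Chat-pos (0.68 ± 0.21; edgeR adjusted p = 0.0508). It passed as higher with RLE scaling (edgeR adjusted p = 0.0396), upper-quartile scaling (0.0468), library sizes over all named genes (0.0435), without Chat-neg 1 (0.0428) and with DESeq2 (adjusted p = 0.0370). The list's median was -0.17 with 10 of 16 negative, beside -0.02 and 51.5% negative over all tested genes.

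Chaperones of mitochondria and the endoplasmic reticulum were read beside the cytosolic set. Of 7 tested genes, 3 were lower and 0 higher, against 2.87% and 3.62% of all tested genes, with a median of -0.56. Hspe1, the mitochondrial Hsp10, was measured at 209, 169, 224 and 358 CPM in Chat-neg and at 58.5, 68.5, 67.1 and 72.8 CPM in Chat-pos. The groups lay far apart. The fall was -1.86 ± 0.22 on the log2 scale (edgeR adjusted p = 3.76e-06), larger than that of any tested cytosolic member, and it passed in all 18 alternatives. Hspa9, the mitochondrial Hsp70, fell from 81.7 ± 30.6 to 36.1 ± 11.6 CPM (SD, n = 4 each; -1.22 ± 0.27; edgeR adjusted p = 0.00657), which leaving out Chat-neg 4 ended (edgeR adjusted p = 0.0674). Hspa13, a microsomal Hsp70 relative, fell from 14.1 to 4.32 CPM (-1.71 ± 0.52; edgeR adjusted p = 0.0429), on 1 to 13 counts per library, and passed in 1 of the 8 fits that left out a library, that without Chat-neg 1. The other tested genes of the list, Hspa5, Hsp90b1, Hspd1 and Trap1, did not pass (edgeR adjusted p from 0.479 to 0.782). Hspa5, the most abundant of the list, lay above 0 (0.29 ± 0.22), and Hspd1, the mitochondrial Hsp60, stood at -0.31 ± 0.49. Whether organelle and cytosolic chaperones differed from each other in their change was not tested.

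Genes whose profile over the 8 libraries was most like that of the members were found among 2841 tested genes whose mean level was 50 CPM or more. The measure was the root mean square difference between log2 profiles, each centred on its own mean. For the summed inducible members the closest were Atp5l (0.119), Nop10 (0.122), Atp5j (0.125), Sub1 (0.138) and Ndufc2 (0.147), where the median gene stood at 0.556. For the summed constitutive members they were Nol7 (0.117), Lman2 (0.121), Polr2f (0.125), Mrps14 (0.134) and Swt1 (0.142), with a median of 0.436 over all. The profiles share libraries and depth, and no p belongs to these distances.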

How the data were processed

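RNA of 4 Chat-neg and 4 Chat-pos libraries, made with SMARTer v4 and Nextera XT, was read over 74 cycles in single reads, per the labels' protocols. The kits mark no strand and add no molecular identifiers. The authors deposited whole-number counts for each gene symbol. Reads were placed on GRCm38, per the submitters' processing notes. Aligner, counter and annotation: not given in the sources used here. Of 53806 rows, 36 had no gene name and were left out. They held 67.8% to 88.4% of a library's counts in Chat-neg and 58.6% to 64.6% in Chat-pos, without overlap. Another 229 rows shared 114 symbols and were added up per symbol.

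The test was edgeR 4.0.16 under R 4.3.3 (TMM, filterByExpr, robust quasi-likelihood fit, group as the single term, Benjamini-Hochberg adjustment over 8919 genes, threshold 0.05). CPM are counts per 1e+06 of the TMM-scaled total of the tested genes, which held 89.0% to 98.4% of named counts, and are given as mean ± SD. SE and 95% intervals of log2 differences come from the fit. In Chat-neg 1, the shallowest library, 1 count is worth 11.6 CPM. The script was tested first on simulated counts with the same spread for every gene. It called 0 of 50 genes changed 1.5-fold, 9 of 50 changed 2-fold, 47 of 50 changed 4-fold and 49 of 50 changed 8-fold. A gene that did not pass is therefore not shown to be unchanged.

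The members and lists were chosen with earlier results of these data known. Named besides the 9 members were, of each list, called genes (at most 3 by p, or the 1 with the smallest p where none passed), the 5 genes of most like profile per class, and the most abundant member of each marker list. Hsbp1, a regulator, was kept in the list of heat-shock factors. Genes named for shared exons or copies came from the annotation, and Fos, Junb, Chgb, Dnajc21, Ptges3 and Unc45a were named after their values were seen. So were Hspa5, Hsp90b1, Hspd1 and Trap1, the remaining tested genes of the organelle list. Gene models and 74-base windows came from GENCODE on GRCm38. Tried as alternatives were other scalings (RLE, upper-quartile, total count), other filters, a replicate block, each library left out, both Paneth-rich libraries left out, DESeq2 1.42.0 and limma-voom (limma 3.58.1). Library sizes over all named genes were added after seeing the data. No set test was run.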

Additional observations from a re-analysis of the deposited data

Results flagged for a closer look

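Within each group of 4 libraries, the gap of the outermost library to its nearest neighbour was compared with the group's range (Dixon's criterion). Of 22 such groups of values, 3 passed. A single group passes by chance in about 1 in 20 cases. The groups share members and are not independent, so that no excess over chance is read from this number. The log2 ratio of inducible to constitutive members in Chat-neg 4 was -0.2854, against -0.6749 to -0.6252 in the other Chat-neg libraries. Hspb1 stood at 1.726 CPM in Chat-neg 3 and at 0.6221 CPM in Chat-pos 1, and these values rest on 2 counts and 1 count. The other 3 libraries of each group had 0 counts, so that any count in the remaining library was bound to pass.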

How the results depend on the processing

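Directions of 7 of the 8 tested members were the same in all 18 alternatives. The exception was Hspa8 (-0.18), at 0.0448 without a filter on low counts and 0.0340 without both Paneth-rich libraries. The lower members, 1 as reported, numbered 3 with upper-quartile or total count scaling, 2 with DESeq2, 2 with limma-voom, and 0 with no filter, with a filter of 5 CPM in 4 libraries, with library sizes over all named genes or without both Paneth-rich libraries. Higher members numbered 0 throughout. Leaving out each library in turn gave 0 to 2 lower members (0 without Chat-neg 4, Chat-pos 2 or Chat-pos 3, and 2 without Chat-neg 1), 138 to 360 higher and 110 to 309 lower genes overall (323 and 256 as reported), and 0 to 3 higher and 1 to 5 lower genes in the 8 lists of cytosolic, organelle and immediate-early genes (3 and 5 in the main test; 1 lower without Chat-neg 4). The lowest overall counts came without Chat-neg 2. Lower genes overall fell to 163 with Chat-neg 3 left out, 124 with Chat-neg 4 and 141 with Chat-pos 3. They numbered 143 without a filter and 86 without both Paneth-rich libraries. Total count scaling turned the overall split to 217 higher and 330 lower. In these 8 lists, higher genes numbered 1 with total count scaling and 0 with limma-voom or without both Paneth-rich libraries, and lower genes 3 without a filter and 2 without both Paneth-rich libraries. The ratio difference of -0.26 was -0.0219 with Dnaja1 as inducible, and -0.33 to -0.17 with a library left out. The causes were not tested. DESeq2 gave Hspa13 no adjusted p. Depth limits Chat-neg 1, where 148 counts fell on the members.

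Replicate numbers were not taken as pairing the libraries, since not every correlation of same-numbered deviations exceeded 0.1 (0.117, 0.199, -0.0177 and -0.0387). Whether same-numbered libraries share animals is not given. With the replicate block, 2 members were lower, Hspa1a (edgeR adjusted p = 0.0200) and Hspa1b (0.0253), Hsp90aa1 was at 0.0893, and 3 genes of the 8 lists were lower, Jun, Hspe1 and Hspa9.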
